A study of Mus musculus with 6 samples.

Results

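The genes described here encode the subunits of oxidative phosphorylation that are made from nuclear DNA, in motor neurons (MNs) derived from mouse embryonic stem cells (mESCs). They were chosen by symbol alone, as genes named Ndufa, Ndufb, Ndufc, Ndufs or Ndufv with a number for complex I, Sdh genes for complex II, Uqcr genes for complex III, Cox4 to Cox8 genes for complex IV and Atp5 genes for complex V. This gave 85 genes of 34433 symbols in the table, of which 37 belong to complex I, 4 to complex II, 8 to complex III, 17 to complex IV and 19 to complex V. Where a symbol had several rows, the row with the highest level was used. A few symbols that match are not structural subunits. Atp5s and Atp5sl are related to the ATP synthase by name, Cox7a2l is known as a factor that joins complexes into supercomplexes, Ndufa4l2 is a relative of Ndufa4, and Atp5l-ps1 is annotated as a processed pseudogene. Ndufa4 itself, counted under complex I by its symbol, is known as a subunit of complex IV.

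The MNs came from 1 control line, Hb9, and 1 line that models spinal muscular atrophy (SMA), A2, both on the FVB/N background. SMA is a motor neuron disease that arises when the gene SMN1 is lost or mutated, which lowers the level of SMN protein. The study's methods give Hb9 as SMN2+/+;mSmn+/+, where the labels say only wildtype, and A2 is SMN2+/+;mSmn-/-, so both lines carry the human SMN2 transgene and A2 lacks mouse Smn. Embryoid bodies of both lines received 1 µM retinoic acid and 1 µM Smoothened agonist for 5 days, and cells in which the Hb9 (Mnx1) promoter drove green fluorescent protein were collected by cell sorting. RNA of 3 samples per genotype was sequenced. Each genotype is 1 cell line, so an effect of the genotype and a difference between the lines cannot be told apart.

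The deposited table gives 1 value per gene and genotype, in FPKM, a count of sequenced fragments scaled to exon length and to the number of mapped fragments. The differences below were computed from these 2 values and have no replicate check of their own, the authors' p-values being not used here, and neither the depth of each sample nor the reads behind a value can be read from the table. The measure of difference is the log2 ratio of FPKM in A2 SMA over Hb9 control MNs. Smn1, the targeted gene, had a log2 ratio of -4.70, from 137 FPKM in the control to 5.26 FPKM in the SMA line. The sorted populations differed in their markers. Summed FPKM of 5 motor neuron markers, of 6 listed, was 199 in Hb9 control and 51.9 in A2 SMA MNs. Of the 5, 4 were lower and Mnx1 was higher (log2 ratio 0.10), where 65.9% of all genes were lower. Neuronal markers (898 and 110 FPKM, 3 of 5 listed) and neural progenitor markers (2110 and 212 FPKM, 5 of 6 listed) were all lower in A2 SMA MNs. Pax6, a progenitor marker, was nearly equal, at 22.4 and 21.4 FPKM (-0.07). The listed markers not counted have no symbol in the table. The 6 pluripotency markers summed to 208 and 1359 FPKM and all were higher. Fibroblast markers summed to 58.6 and 29.1 FPKM, 3 of 4 being lower. The 3 astrocyte markers summed to 14.7 and 3.40 FPKM, nearly all of it from Aldh1l1 (13.9 and 3.03 FPKM). All 3 were lower, but Gfap (0.390 and 0.325 FPKM) and Aqp4 were under 1 FPKM in both genotypes. No marker was at 0, and the part of this difference in cell identity in the values below was not tested. In sorted bulk RNA, fewer cells of a type and less RNA per cell cannot be told apart.

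Oxidative phosphorylation takes place in the inner mitochondrial membrane. Complexes I and II feed electrons from NADH and succinate into the ubiquinone pool, complex III passes them to cytochrome c, complex IV hands them to oxygen, and complex V uses the proton gradient that complexes I, III and IV build to make ATP. Mitochondrial DNA encodes a few core subunits of every complex except complex II, and nuclear genes encode the rest, so that both genomes must be expressed together. Neurons depend strongly on this pathway, while pluripotent stem cells are known for a high rate of glycolysis.

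Many of these genes have processed pseudogenes, copies of the spliced mRNA inserted elsewhere in the genome, and reads of 50 bases can match gene and copy alike. The sequences of Ndufs5 and Uqcr11 beside their closest copies are shown because most of the expression assigned to each pair stood on the copy. Ndufs5 lies at chr4:123712710-123718202 (minus strand) and its copy BC002163 at chr16:42955631-42955949 (plus strand). Uqcr11 lies at chr10:80402997-80406830 (minus strand) and its copy Gm16418 at chr1:166431705-166431875 (minus strand). Positions and sequences are from GENCODE M21 on GRCm38. Coding bases 51 to 110 of 318 are shown for Ndufs5 and 57 to 116 of 168 for Uqcr11, with the bases that differ between gene and copy in capitals. Each pair had 2 differences over the whole coding sequence, both inside the stretch shown.
Ndufs5: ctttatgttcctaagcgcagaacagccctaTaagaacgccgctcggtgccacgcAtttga
BC002163: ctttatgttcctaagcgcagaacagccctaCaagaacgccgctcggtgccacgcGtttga
Uqcr11: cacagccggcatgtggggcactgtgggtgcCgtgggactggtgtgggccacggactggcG
Gm16418: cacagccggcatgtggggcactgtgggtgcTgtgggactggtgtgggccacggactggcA

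Nuclear genes of the respiratory chain are known to share binding motifs for NRF1, for ETS factors such as GABP, and for YY1 near their start sites. Promoter stretches of 4 subunit genes are shown, with 1 each from complexes I, II, IV and V, because they hold the letters of the NRF1 motif ahead of the start. They are from RefSeq on GRCm38.p6, and capitals mark the letters GCGCATGC or its reverse complement, which overlap where a run reads the same on both strands, and in Cox6a1 also CTTCCGG, the reverse complement of the ETS letters. They lie at chr17:56717687-56717726 (plus strand) for Ndufa11, chr4:140961202-140961239 (plus strand) for Sdhb, chr5:115348959-115349135 (minus strand) for Cox6a1 and chr5:108434425-108434464 (minus strand) for Atp5k.
Ndufa11: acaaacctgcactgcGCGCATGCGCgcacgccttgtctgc
Sdhb: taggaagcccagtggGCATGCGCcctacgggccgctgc
Cox6a1: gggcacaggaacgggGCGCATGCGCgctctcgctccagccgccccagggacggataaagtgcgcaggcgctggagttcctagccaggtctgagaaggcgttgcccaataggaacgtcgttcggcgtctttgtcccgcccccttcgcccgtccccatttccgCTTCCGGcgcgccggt
Atp5k: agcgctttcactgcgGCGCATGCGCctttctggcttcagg

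The subunit genes were abundant in both genotypes. A gene was summarised if it reached at least 1 FPKM in either genotype and was above 0 in both, which 80 of the 85 did, as did 14926 loci with a symbol in the whole table. The median level of the 80 was 109.6 FPKM in Hb9 control and 90.2 FPKM in A2 SMA MNs, against 17.6 and 12.9 FPKM for all genes. At least 50 FPKM in either genotype was reached by 53, and 36 stood at 100 FPKM or more in both. The 5 that did not pass were Uqcrb (0.896 and 0.519 FPKM), Atp5l (0.253 and 0.224 FPKM), the muscle isoform Cox8b (0.517 and 0.278 FPKM), and Atp5l-ps1 and Atp5l2, which are listed at 0 in both genotypes. Uqcrb and Atp5l encode ubiquitous subunits of complexes III and V. Cox6a2 (0.515 FPKM in Hb9 control MNs) and Ndufs5 (0.904 FPKM in A2 SMA MNs) passed through 1 genotype only, so a difference between genotypes was built into their selection.

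Most subunit genes differed little between the genotypes. Their median log2 ratio was -0.19, with quartiles of -0.36 and -0.02, against a median of -0.29 and quartiles of -0.89 and 0.19 for all genes. The SD of the log2 ratios over genes was 0.47 for the subunits and 1.22 for all genes. The whole table thus leaned toward lower FPKM in A2 SMA MNs, and the direction of a subunit depended on the scale: 64 of 80 (80%) had a log2 ratio below 0, where 65.9% of all genes did, but 57 of 80 (71.25%) lay above the median gene. A log2 ratio between -0.29 and 0 was below Hb9 control as deposited and above it relative to the median gene. The plot of log2 ratios by complex shows complexes II and III inside the quartiles of all genes, complex I inside them except for Ndufs6, and complex IV spread well beyond them.

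**Figure D1:**
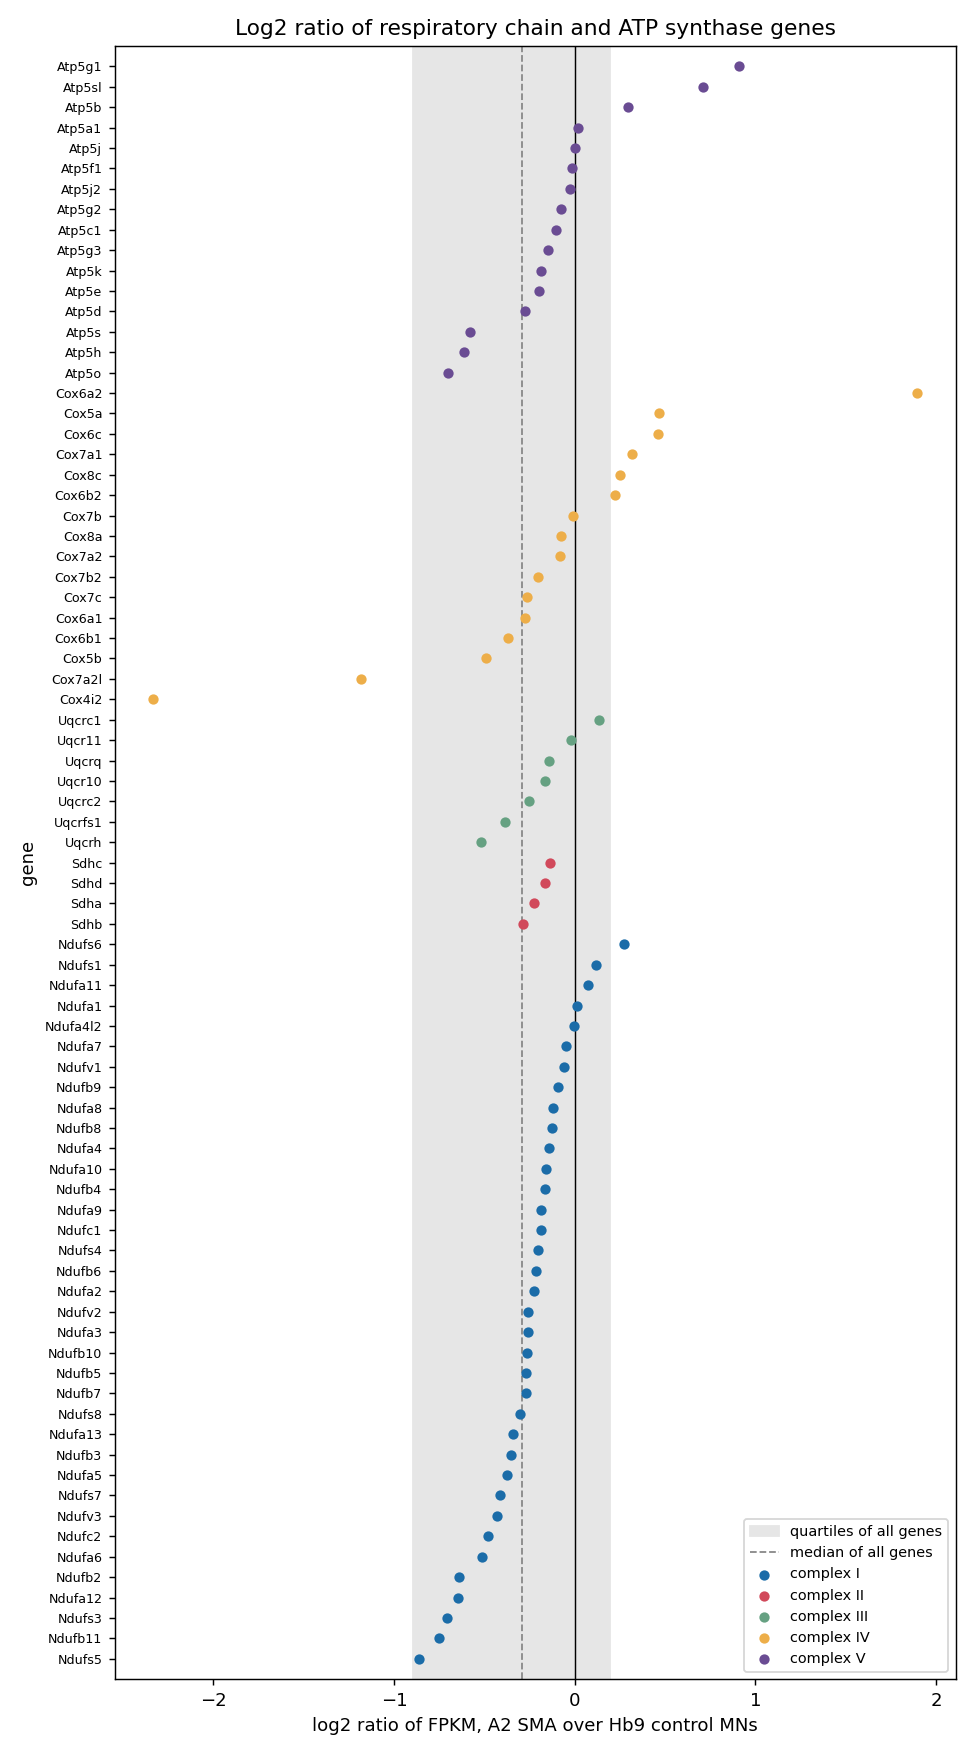
Log2 ratio of FPKM, A2 SMA over Hb9 control MNs (x axis), for the subunit genes drawn of the 80 that passed the filter on low levels (y axis), coloured by complex. Each point is 1 ratio of the authors' 2 values without a replicate error. The dashed line is the median of all genes (-0.29) and the band its quartiles (-0.89 and 0.19). Complex I runs from -0.86 to 0.27 and complex IV from -2.33 to 1.90, and points between the dashed line and 0 are lower as deposited but higher relative to the median gene.

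By size of difference, 68 of 80 subunit genes (85%) were within 1.5-fold, where 51.9% of all genes were. A difference of at least 1.5-fold was found for 9 lower subunit genes, beside 35.4% of all genes, and for 3 higher ones, beside 12.7% of all genes. Relative to the median gene, the split turned to 6 higher and 2 lower, beside 20.8% and 25.5% of all genes. At a ratio of 5 to 4, 22 were lower (48.4% of all genes), 5 were higher (19.8% of all genes) and 53 lay within it (31.7% of all genes). At 2-fold, 2 were lower (22.4% of all genes) and 1 was higher (6.83% of all genes).

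Because most subunit genes were abundant, they were also set beside those of at least 50 FPKM in either genotype, 3628 in all, with a median log2 ratio of -0.17 and an SD of 1.05. The 53 subunits of that level had a median of -0.20 and an SD of 0.23. A log2 ratio below 0 was found for 44 of the 53, beside 62.1% of the abundant genes. Lower by at least 1.5-fold were 2, Atp5o and Ndufb2, and none was higher, where 26.9% and 10.7% of the abundant genes were, and 51 lay within it, beside 62.4%. Relative to the median gene, 1 was higher and none lower by 1.5-fold, against 20.8% and 17.6% of the abundant genes. At a ratio of 5 to 4, 12 were lower, 1 was higher and 40 lay within it, beside 41.8%, 19.6% and 38.6%. None of the 53 differed by 2-fold, which 14.8% of the abundant genes did downward and 4.24% upward. The 27 subunits under 50 FPKM had a median of -0.19 and an SD of 0.75, and held 7 of the 9 lower and all 3 of the higher genes. Of the 11298 genes at that level, with a median of -0.33, 38.1% were lower and 13.4% higher by 1.5-fold. Across the 80 genes, level and log2 ratio had a Pearson r of -0.03 and a Spearman rho of 0.06, given as a description across genes that share both libraries and are not independent.

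**Figure D2:**
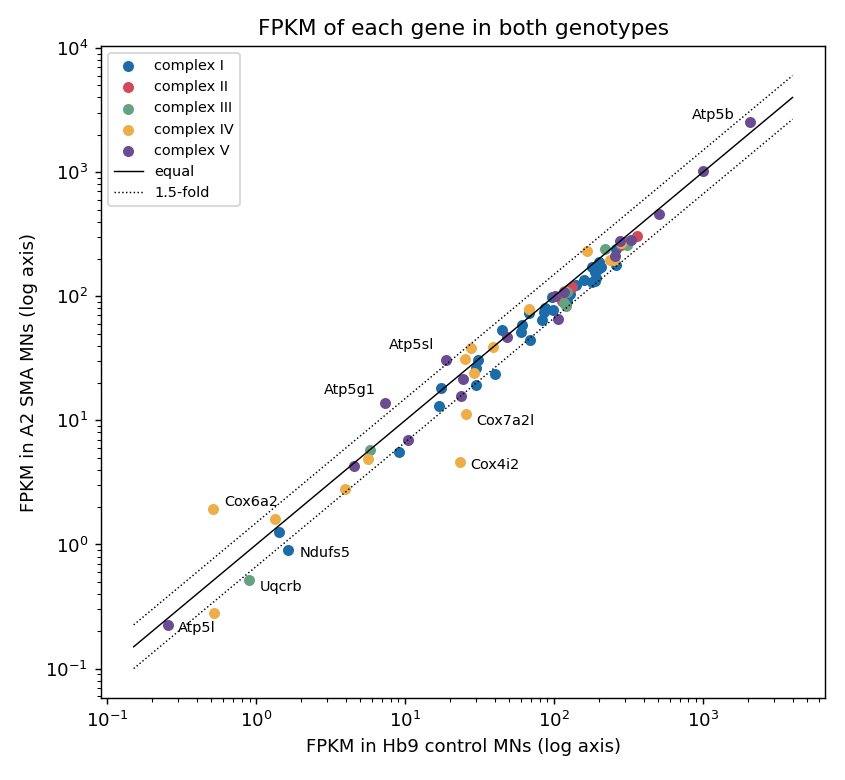
FPKM in A2 SMA MNs (y axis) against FPKM in Hb9 control MNs (x axis), both on log axes, for the 83 subunit genes above 0 in both genotypes, coloured by complex. The solid line marks equal values and the dotted lines a 1.5-fold difference. Above 50 FPKM only Atp5o and Ndufb2 lie outside the dotted lines as deposited, while Cox4i2, Cox7a2l, Cox6a2, Atp5g1 and Atp5sl stand out among genes under 50 FPKM.

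Complex I, the NADH dehydrogenase, had the lowest median of the complexes, with a log2 ratio of -0.26 as deposited and 0.03 relative to the median gene. Of its 37 genes, 33 were below 0 and 4 above, where 65.9% of all genes were below 0. By at least 1.5-fold 5 were lower and none higher, beside 35.4% and 12.7% of all genes. Summed FPKM over the complex was 4031 in Hb9 control and 3378 in A2 SMA MNs. The most abundant row, Ndufb8, which also lists Gm20538 and Sec31b, stood at 261 and 239 FPKM (log2 ratio -0.13). Ndufb8 encodes an accessory subunit of the membrane arm.

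The 7 core subunits that nuclear DNA encodes carry the flavin and the iron-sulfur clusters, or help to form the site where ubiquinone is reduced. Ndufv1, which binds NADH and flavin, stood at 180 and 173 FPKM (log2 ratio -0.06), and Ndufs1, which holds several iron-sulfur clusters, at 67.5 and 73.3 FPKM (0.12). Ndufs7, which holds the last cluster before ubiquinone, stood at 122 and 91.7 FPKM (-0.41). Core genes thus spread on both sides of the median gene. Ndufs3 was the lowest of them at 9.08 and 5.57 FPKM (-0.71). The core genes had a median log2 ratio of -0.30 and the 30 accessory genes one of -0.22. By position, the 16 genes of the matrix arm had a median of -0.28 and the 19 of the membrane arm one of -0.26. Relative to the median gene, these 4 medians lie within 0.10 of 0.

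Both ends of complex I were accessory genes. Ndufs6, a zinc-binding subunit of the matrix arm, was highest, at 44.5 and 53.7 FPKM (log2 ratio 0.27). Ndufs5 was lowest, at 1.64 and 0.904 FPKM (-0.86), and was one of 2 genes of the complex under 2 FPKM in both genotypes, the other being Ndufb4 (1.42 and 1.27 FPKM). With a pseudocount of 1 FPKM, Ndufs5 had a log2 ratio of -0.47, within 1.5-fold and no longer the lowest, and the lower genes over all complexes numbered 7 in place of 9. Next came Ndufb11, an X-linked membrane arm subunit, at 39.9 and 23.7 FPKM (-0.75). Ndufa12, at 30.1 and 19.2 FPKM (-0.65), and Ndufb2, whose row is shared with Adck2, at 69.2 and 44.4 FPKM (-0.64), were the other accessory genes past 1.5-fold. Accessory genes at 100 FPKM or more in both genotypes ranged from Ndufa6, at 189 and 132 FPKM (-0.51), to Ndufb9, at 202 and 189 FPKM (-0.09), both named after their values were seen.

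Complex II, succinate dehydrogenase, is also an enzyme of the citric acid cycle and the one complex encoded wholly in the nucleus. Its 4 genes lay close together, with a median log2 ratio of -0.20 as deposited and 0.09 relative to the median gene. Sdha, the flavoprotein, stood at 359 FPKM in Hb9 control and 307 FPKM in A2 SMA MNs (-0.23). Sdhb, the iron-sulfur subunit, stood at 112 and 92.2 FPKM (-0.28). The membrane anchors were Sdhc, at 283 and 258 FPKM (-0.14), and Sdhd, at 133 and 118 FPKM (-0.16). All 4 were below 0 as deposited, as were 65.9% of all genes, and above the median gene.

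Complex III, the cytochrome bc1 complex, had a median log2 ratio of -0.16 over 7 genes, which was 0.13 relative to the median gene, and no gene differed by 1.5-fold, where 35.4% of all genes were lower and 12.7% higher. Of the core proteins that frame the complex on its matrix side, Uqcrc1 had the highest log2 ratio, at 219 and 240 FPKM (0.13), while Uqcrc2, the most abundant in Hb9 control MNs, stood at 307 and 258 FPKM (-0.25). Uqcrc1 is among 7 subunit genes with the status FAIL in the table, for which the authors' test was not completed although FPKM values are given. Uqcrfs1, the Rieske iron-sulfur protein, stood at 116 and 88.7 FPKM (-0.38). The hinge protein Uqcrh was the lowest, at 120 and 83.6 FPKM (-0.52). Uqcr11 had a low level, 5.82 and 5.75 FPKM (-0.02), while the level of the other small subunits was 300.3 and 272 FPKM for Uqcrq, the most abundant in A2 SMA MNs, and 122 and 109 FPKM for Uqcr10.

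Complex IV, cytochrome c oxidase, was the most dispersed, with a median log2 ratio of -0.08 as deposited and 0.21 relative to the median gene, and a range from -2.33 to 1.90 over 16 genes. Several of its subunits exist as a ubiquitous isoform and one restricted to tissues such as muscle, lung or testis. The 9 ubiquitous genes had a median of -0.08, and the 6 restricted ones that passed had one of 0.24. This gap of -0.32 was -0.088 when at least 5 FPKM in either genotype was required. That leaves out the restricted Cox6a2 and Cox8c and the ubiquitous Cox5b. Cox8a, the most abundant, stood at 283 and 268 FPKM (-0.07). Cox5a was the highest of the ubiquitous genes, at 168 and 231 FPKM (0.47), followed by Cox6c at 27.6 and 38.0 FPKM (0.46). Cox5b was the lowest of them, at 3.94 and 2.80 FPKM (-0.49).

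The widest differences were in restricted isoforms and in Cox7a2l. Cox4i2, the isoform of subunit 4 known from lung and for its regulation by oxygen, stood at 23.2 FPKM in Hb9 control and 4.61 FPKM in A2 SMA MNs (log2 ratio -2.33), at chr2:152579908-152590773 of NCBI m37. The ubiquitous Cox4i1 has no symbol in the table, so Cox4i2 could not be set beside it. Cox6a2, the heart and muscle isoform, was higher in A2 SMA MNs, at 0.515 and 1.92 FPKM (1.90). The coordinates of its row are chr7:135297889-135367330, and whether the row covers more than the gene was not checked. Cox6a2 made up only 0.216% and 0.966% of summed Cox6a FPKM. With a pseudocount of 1 FPKM its log2 ratio was 0.94. Cox7a2l stood at 25.5 and 11.2 FPKM (-1.18). These 3 kept their direction relative to the median gene.

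Shares within isoform sets differed between genotypes for subunits 6b and 7a. Cox6b2, known from testis, stood at 68.4 and 79.7 FPKM (log2 ratio 0.22) beside Cox6b1 at 253 and 196 FPKM (-0.37), and its share of the pair was 21.3% in Hb9 control and 28.9% in A2 SMA MNs. Cox7a1, the heart and muscle isoform, stood at 25.3 and 31.5 FPKM (0.31) beside Cox7a2 at 116 and 110 FPKM (-0.08), and its share of the set with Cox7a2l was 15.1% and 20.6%. The ubiquitous isoform still held most of each set in both genotypes. Cox6a1 stood at 238 and 196 FPKM (-0.28). Cox7b stood at 39.0 and 38.8 FPKM (-0.01), and its testis isoform Cox7b2 at 5.60 and 4.86 FPKM (-0.20), a share of 12.5% and 11.1%. Cox8a held 99.3% of its set in both genotypes, and Cox8c, known from testis, stood at 1.34 and 1.60 FPKM (0.25). Ndufa4 stood at 126 and 114 FPKM (-0.14) and its relative Ndufa4l2 at 31.0 and 30.9 FPKM (-0.01).

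**Figure D3:**
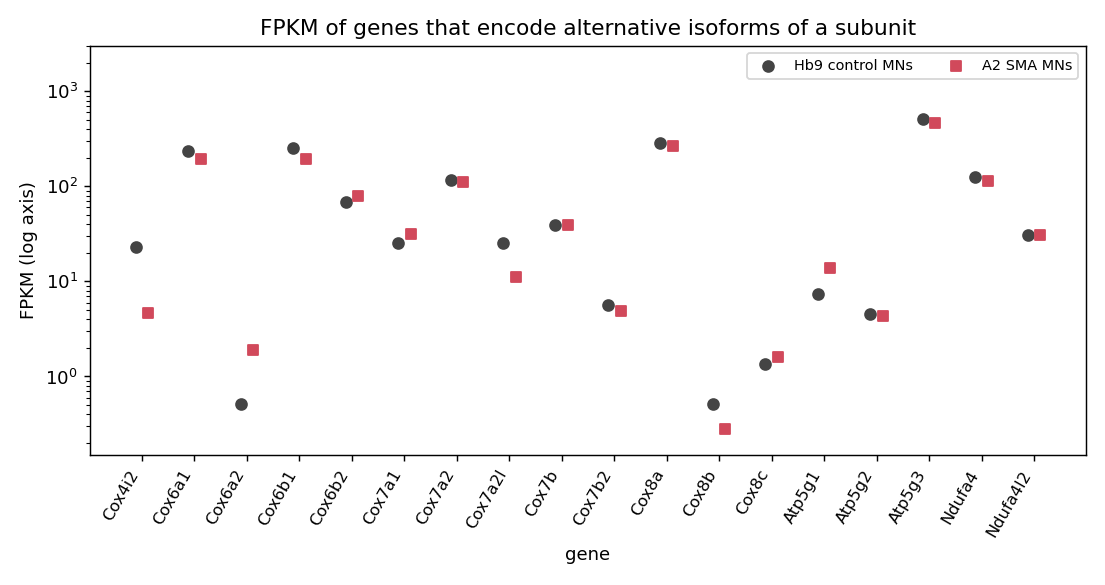
FPKM (y axis, log axis) of the genes in each isoform set (x axis) in Hb9 control MNs (circles) and A2 SMA MNs (squares), 1 value of the authors per genotype. Cox4i2 and Cox7a2l are lower and Cox6a2 and Atp5g1 higher in A2 SMA MNs, and the dominant genes Cox6a1, Cox8a and Atp5g3 stay above 190 FPKM in both.

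Complex V, the ATP synthase, held the most abundant genes. Its median log2 ratio was -0.09 over 16 genes as deposited and 0.20 relative to the median gene. In the catalytic F1 head, Atp5b, the beta subunit, stood at 2063 FPKM in Hb9 control and 2528 FPKM in A2 SMA MNs (0.29). The coordinates of its row are chr10:127496009-127566402 of NCBI m37, and whether the row covers more than the gene was not checked. Atp5a1, the alpha subunit, stood at 1007 and 1022 FPKM (0.02). Summed FPKM over the complex was 4905 and 5204, and without these 2 genes it was 1835 and 1653. The small F1 subunits Atp5d (255 and 211 FPKM, -0.28) and Atp5e (327 and 286 FPKM, -0.20) had lower log2 ratios than the alpha and beta subunits. Both Atp5b and Atp5a1 have the status FAIL.

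The peripheral stalk keeps the head from turning with the rotor. Its 4 genes split into Atp5f1 (102 and 101 FPKM, log2 ratio -0.01) and Atp5j (278 and 279 FPKM, 0.00) near 0, and Atp5o (107 and 65.8 FPKM, -0.70, in a row shared with Donson) and Atp5h (23.9 and 15.6 FPKM, -0.61) past 1.5-fold. The c ring is the rotor in the membrane, and 3 genes encode the same mature c subunit. Atp5g3 supplied 97.7% of their summed FPKM in Hb9 control and 96.2% in A2 SMA MNs, at 511 and 462 FPKM (-0.15). Atp5g1 stood at 7.37 and 13.8 FPKM (0.91), a share of 1.41% and 2.88%, and Atp5g2 at 4.54 and 4.32 FPKM (-0.07). Of the genes that are no structural subunits, Atp5sl stood at 18.9 and 30.9 FPKM (0.71), and Atp5s, just inside the 1.5-fold limit, at 10.5 and 6.99 FPKM (-0.58).

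Near-identical pseudogenes were common among the lower genes. Of 82 genes matched to a coding transcript, 33 shared at least 1 run of 50 coding bases with an annotated pseudogene. Among the genes that passed, 16 had a pseudogene of at least 95% identity over at least 80% of the coding sequence and 63 had none, Atp5sl being unmatched. Those with a copy had a median level of 24.1 FPKM in Hb9 control and 17.4 FPKM in A2 SMA MNs, and those without one 126 and 109 FPKM. Their median log2 ratios were close, -0.23 and -0.19, but 6 of the 9 genes lower by 1.5-fold had a copy (66.7%), against 9 of 68 within it (13.2%). The 6 were Ndufs5, Ndufb11, Ndufs3, Ndufa12, Atp5o and Atp5h. Cox7a2l had no copy by this criterion but shared 54.1% of its 50-base runs with pseudogenes. Of the 3 higher genes, Atp5g1 had a copy, and 99.7% of its runs were shared. With the copy's FPKM added, the log2 ratio of Atp5g1 was 0.66 in place of 0.91, still past 1.5-fold.

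The copies themselves carried FPKM in the table. BC002163, shown above beside Ndufs5, stood at 22.9 FPKM in Hb9 control and 20.8 FPKM in A2 SMA MNs, many times the level of Ndufs5 itself, and Gm16418 stood at 65.7 and 57.5 FPKM beside Uqcr11. Copies also stood above the gene for Ndufa12, whose copy Gm15920 stood at 77.9 and 56.0 FPKM, and for Ndufs3, whose copy Gm12251 stood at 30.7 and 25.5 FPKM. With the copies' FPKM added, the log2 ratio was -0.18 for Ndufs5, -0.36 for Ndufs3, -0.34 for Atp5o, -0.47 for Atp5h and -0.52 for Ndufa12, all within 1.5-fold, while Ndufb11 kept -0.70. Lower by 1.5-fold were then 4 genes, Cox4i2, Cox7a2l, Ndufb11 and Ndufb2, in place of 9. All 7 annotated copies of Atp5l that met the criterion were at 0 or had no row, and how the reads of Atp5l were assigned was not tested.

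**Figure D4:**
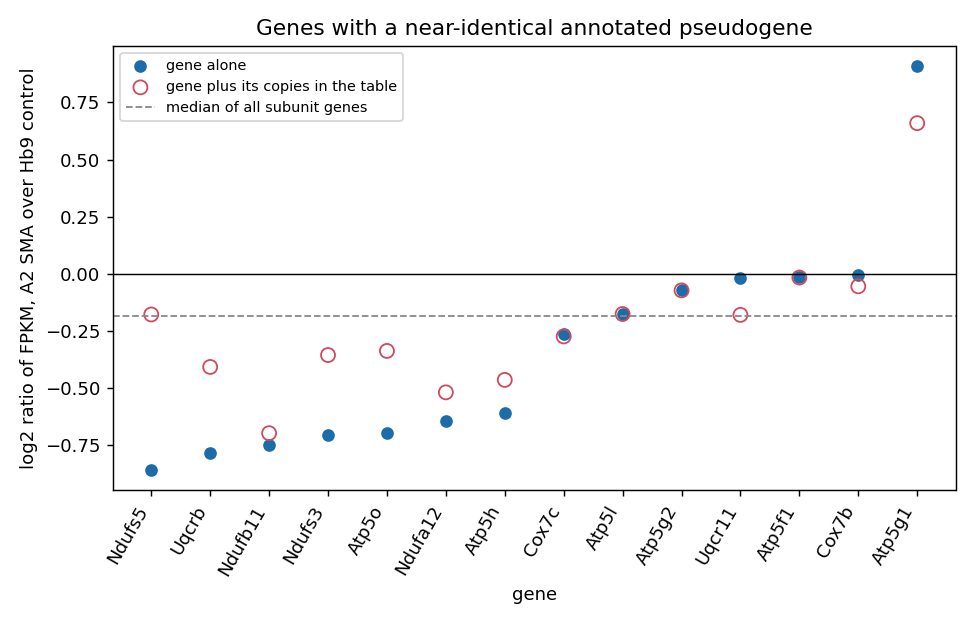
Log2 ratio of FPKM, A2 SMA over Hb9 control (y axis), of the 14 subunit genes with a near-identical annotated pseudogene that has a row in the table (x axis), for the gene alone (filled) and for the gene plus its copies (open). Uqcrb and Atp5l were under 1 FPKM in both genotypes, and the dashed line is the median of all subunit genes (-0.19). Adding the copies brings Ndufs5 from -0.86 to -0.18 and Atp5o from -0.70 to -0.34, and leaves Atp5g2 and Atp5l where they were.

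Genes that work with the subunits were taken from lists written without regard to their direction, though with earlier results of these data known. The 13 subunits encoded by mitochondrial DNA fall in only 4 rows of the table, with a median log2 ratio of 0.34, which was 0.63 relative to the median gene. Cytochrome b (mt-Cytb) stood at 1568 and 2067 FPKM (0.40) and mt-Nd6 at 643 and 785 FPKM (0.29). The row that joins the subunits of complexes IV and V with mt-Nd3, mt-Nd4, mt-Nd4l and mt-Nd5 stood at 1425 and 1427 FPKM (0.00). The row of mt-Nd1 and mt-Nd2 stood at 3385 and 6375 FPKM (0.91), but it also holds both mitochondrial ribosomal RNAs. All 4 rows were at or above 0, where 65.9% of all genes were below 0, but 1 of them was at 0.00 and the highest includes ribosomal RNA. The nuclear subunits of complexes I, III, IV and V had medians from -0.26 to -0.08.

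Subunits and electron carriers outside the symbol rule had a median log2 ratio of -0.20 over 6 genes, and 0.09 relative to the median gene. Cyc1, the cytochrome c1 of complex III, stood at 219 and 251 FPKM (0.20), Atpif1, an inhibitor of the ATP synthase, at 247 and 236 FPKM (-0.07), and 2010107E04Rik at 212 and 152 FPKM (-0.48). Cyct, the testis form of cytochrome c, was higher in A2 SMA MNs, at 14.7 and 104 FPKM (2.82). Cycs, the somatic form, stood at 0.726 and 0.544 FPKM, did not pass the filter and is not among the 6. Pseudogene copies were not searched for genes outside the symbol rule, so the levels of Cyct and Cycs cannot be compared with each other here. Ndufab1, an acyl carrier protein and complex I subunit, was lower, at 9.95 and 4.72 FPKM (-1.08).

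Assembly factors, which build the complexes without staying in them, had a median log2 ratio of -0.13 as deposited and 0.16 relative to the median gene over 30 of the 42 listed, with 7 lower and 1 higher by 1.5-fold, beside 35.4% and 12.7% of all genes. The most abundant were Cox17, a copper chaperone in a row shared with Popdc2, at 123 and 155 FPKM (0.33), Lrpprc, which stabilises mitochondrial mRNAs, at 54.7 and 99.5 FPKM (0.86, the highest, status FAIL), and Cox16, in a row shared with other symbols, at 72.3 and 60.02 FPKM (-0.27). The lowest was Lyrm7, which helps to insert the Rieske protein, at 11.8 and 2.51 FPKM (-2.23). Regulators of respiratory gene expression and mitochondrial DNA had a median of -0.05 as deposited and 0.24 relative to the median gene over 17 genes, with 3 lower and 2 higher by 1.5-fold, beside the same 35.4% and 12.7%. Polg, the mitochondrial DNA polymerase, stood at 117 and 96.1 FPKM (-0.29), Tfam, which packages mitochondrial DNA, at 85.9 and 116 FPKM (0.44), and the coactivator Pprc1 at 56.6 and 97.0 FPKM (0.78, the highest). The nuclear receptor Esrrg was the lowest, at 12.9 and 0.664 FPKM (-4.28). Ppargc1a, a coactivator of mitochondrial biogenesis, named after its values were seen, stood at 1.97 and 0.267 FPKM (-2.88). Both are among the 3 lower regulators and reached 1 FPKM in Hb9 control MNs only, so a difference was built into their selection as well.

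Promoters of the subunit genes were compared with all promoters for the letters of the 3 motifs. Windows from 250 bases before to 50 bases after the start were found for 66 of the genes and searched on both strands. The NRF1 letters GCGCATGC were in 10 of 66 (15.2%), where 3.05% of 27025 promoters hold them. The ETS letters CCGGAAG were in 16 (24.2%, against 9.93%) and the YY1 letters AAGATGGC in 9 (13.6%, against 3.19%). At least 1 of the 3 was in 29 (43.9%, against 14.9%), and NRF1 and ETS letters together were in 5 (7.58%, against 0.618%), which were Atp5k, Atp5l, Cox6a1, Sdhb and Uqcr11. A match of letters is a description and not a binding site.

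Between genes with and without each motif the median log2 ratio differed by at most 0.10. It was -0.12 for 9 genes with the NRF1 letters and -0.21 for 55 without them, -0.27 for 15 with the ETS letters and -0.19 for 49 without, and -0.19 for 9 with the YY1 letters and -0.23 for 55 without. Of the genes whose NRF1 stretches are printed above, Ndufa11 stood at 17.4 and 18.3 FPKM (0.07) and Atp5k at 24.3 and 21.4 FPKM (-0.19), Sdhb and Cox6a1 being given above. Over all 9 genes with the NRF1 letters the log2 ratios ran from -0.51 for Ndufa6 to 0.13 for Uqcrc1. The factors themselves, named after their values were seen, stood at 66.9 and 82.5 FPKM for Nrf1 (0.30), 54.5 and 90.1 FPKM for Gabpa (0.73) and 78.9 and 78.1 FPKM for Yy1 (-0.02).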

How the data were processed

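RNA of 3 samples each of Hb9 control and A2 SMA MNs was sequenced by the authors as single-end reads of 50 cycles. Per the paper's methods and the submitters' processing notes, the authors checked reads with FastQC 0.10.1, trimmed them with CutAdapt, mapped them to NCBI m37 with TopHat 2.04 (Ensembl annotation), used Cufflinks for transcript assembly and Cuffdiff for the comparison of genotypes. The deposited table holds 41945 rows with 1 FPKM value per genotype, made by the authors over the 3 samples. It also holds the authors' fold changes, test statistics, p-values, q-values and calls, which were not used. How reads that match several places were counted is not given in the sources used here.

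Members and lists were chosen with earlier results of these data known. Log2 ratios were formed without a pseudocount for rows with at least 1 FPKM in either genotype and above 0 in both. Since there is 1 value per genotype, no test of replicates could be computed from the FPKM values, and medians and counts past 1.5-fold were set beside those of all genes with a symbol. A row counted once among all genes. All members entered the medians and counts, and 1 of them is not reported here singly and is not drawn in the plot of log2 ratios. Described singly in each complex were the most abundant gene, the 2 highest and 2 lowest log2 ratios, isoform sets, complex II and genes under 1 FPKM, and in other lists the 3 most abundant and the extremes; further genes are said to be named after their values were seen, or illustrate a role or a shared pseudogene. Pseudogenes were found with blastn 2.17.0 on GENCODE M21 (GRCm38), and promoters came from RefSeq (GRCm38.p6). Table coordinates are NCBI m37 and were not mixed with these. Python 3.11.15, numpy 2.4.6, pandas 2.3.3 and matplotlib 3.10.9 were used, and the summary step was tested on simulated data. Alternatives were other pseudocounts, filters, folds and scalings, summing rows of a symbol, and leaving out shared or FAIL rows. The alternatives on pseudogene copies and on genes that are no structural subunit were chosen after seeing the data.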

Additional observations from a re-analysis of the deposited data

How the results depend on the processing

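No paired analysis was possible because the table gives 1 value per genotype and no values of single samples, and for the same reason leaving out each replicate was not run. Scaling turned the sign of the medians below 0 that follow. Centred on the median gene, the median log2 ratio was 0.10 for all subunits, 0.030 for complex I, 0.095 for complex II, 0.13 for complex III, 0.21 for complex IV, 0.20 for complex V, 0.095 for carriers and other subunits, 0.16 for assembly factors, 0.24 for regulators and 0.63 for mitochondrially encoded subunits, with 6 genes higher and 2 lower by 1.5-fold. Scaled to the upper quartile, these medians were 0.10, 0.028, 0.093, 0.12, 0.21, 0.20, 0.092, 0.16, 0.24 and 0.63 in the same order, again with 6 higher and 2 lower. Other folds gave 5 higher and 22 lower at a ratio of 5 to 4, and 1 higher and 2 lower at 2-fold. A filter of 5 FPKM narrowed the gap between ubiquitous and restricted complex IV isoforms from -0.32 to -0.088. It left out the restricted Cox6a2 and Cox8c and the ubiquitous Cox5b. Of alternatives chosen after seeing the data, leaving out genes with a pseudogene copy left 3 lower genes, and adding the copies gave 4. Another 154 values of such summaries stayed within 0.1 on the log2 scale or 1.5 times a count, and of single genes 94 stayed and 37 moved. Without values of single samples, and with the authors' p-values not used, no difference here was set against a replicate error, and genes of low FPKM are the least certain.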
